A study of Homo sapiens with 8 samples.

Results

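Histone methylation is written and erased by a broad set of enzymes, and 42 of them besides DOT1L were followed here in the established triple-negative breast cancer line MDA-MB-231. The members were taken by gene symbol: 20 lysine methyltransferases or close relatives, 17 lysine demethylases and 5 arginine methyltransferases. Each of the 42 symbols matched 1 Ensembl gene of the 60646 in the deposited count table, and all 42 passed the filter on low counts. Total RNA depleted of ribosomal RNA was sequenced from 8 samples, 4 of cells carrying wild-type DOT1L and 4 of cells labelled as a DOT1L knockout (DOT1L/+), with replicate numbers 1, 2, 3 and 5 in each group. The knockout cells were made with a guide RNA against exon 1, and both groups grew under the same conditions and were harvested a day after plating. The labels do not give the sequence of the edit, the number of clones or whether the replicates were separate cultures. The p-values therefore speak only for the scatter among these 8 samples, and that scatter may be technical.

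Lysine methyltransferases move methyl groups from S-adenosylmethionine to lysines of histone tails, mostly through a SET domain. Demethylases take them off again, the LSD pair by a flavin-dependent reaction and the Jumonji enzymes by one that uses iron, oxygen and 2-oxoglutarate. Methylation of H3K4 marks promoters and enhancers, that of H3K36 lies over transcribed gene bodies, and that of H3K9 and H4K20 is typical of silent chromatin and of chromatin compaction. DOT1L, the enzyme targeted in these cells, methylates H3K79 and has no SET domain.

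Between 40103408 and 50031412 counts were assigned to genes per sample. DOT1L itself was lower in the knockout, at 84.7 ± 5.91 CPM against 109 ± 8.52 CPM (SD, n = 4 each), a count over the whole gene that does not show the edit. CPM is the usual depth-scaled count, with library sizes scaled by the trimmed mean of M values (TMM). VIM and CD44 were abundant in every library, with at least 117878 and 30044 counts, whereas ESR1 had at most 41 counts and PGR at most 6, as is usual for this line. CDH1 ran from 0 to 14 counts and PTPRC from 1 to 8. By group, CDH1 stood at 0 to 0.0232 CPM in wild-type and 0.142 to 0.3 CPM in knockout libraries. Other luminal epithelial markers were present in every library, with 3332 to 3994 counts for ERBB2, 268 to 369 for EPCAM and 145 to 270 for GATA3. The mesenchymal marker SPARC was low, at 1.83 to 2.72 CPM in wild-type and 4.04 to 4.76 CPM in knockout libraries. Among all 19877 tested genes the median log2 change was 0.00 with TMM scaling and 0.07 with library totals or upper-quartile scaling.

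Of the 42 enzymes, 18 were lower in the knockout, 6 were higher and 18 did not pass (edgeR's quasi-likelihood test, Benjamini-Hochberg adjusted p below 0.05 over all tested genes). That is 57.1% of the members called, against 47.6% of all tested genes and 56.4% of the 10576 tested genes within the members' range of mean level, so the share called was near the background. By direction, 42.9% of the members were lower, against 23.6% of all tested genes and 33.7% of those in the same range of level. Higher calls made up 14.3% of the members, against 23.9% and 22.7%. The same shares are the background for the family counts below, which rest on 2 to 7 genes each and were not tested against them. The members' median log2 change was -0.11, and their changes ran from -0.93 for SETD7 to 0.39 for KDM1B. The groups did not overlap for 24 members, against 43.4% of all tested genes. Most changes were small: 18 of the 24 called members stayed under 0.5 on the log2 scale, and the other 6, all lower, were SETD7, KMT5B, CARM1, KMT5A, KDM2A and SETD2. Over all tested genes 21.9% were called with a change of at least 0.5 in either direction. With library totals 9 members were higher and 14 lower, and with upper-quartile scaling the counts were again 9 and 14. Both scalings ended the calls of SETD1A, EHMT1, KDM4A and KDM3A and added NSD1, ASH1L and KDM7A as higher.

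**Figure D1:**
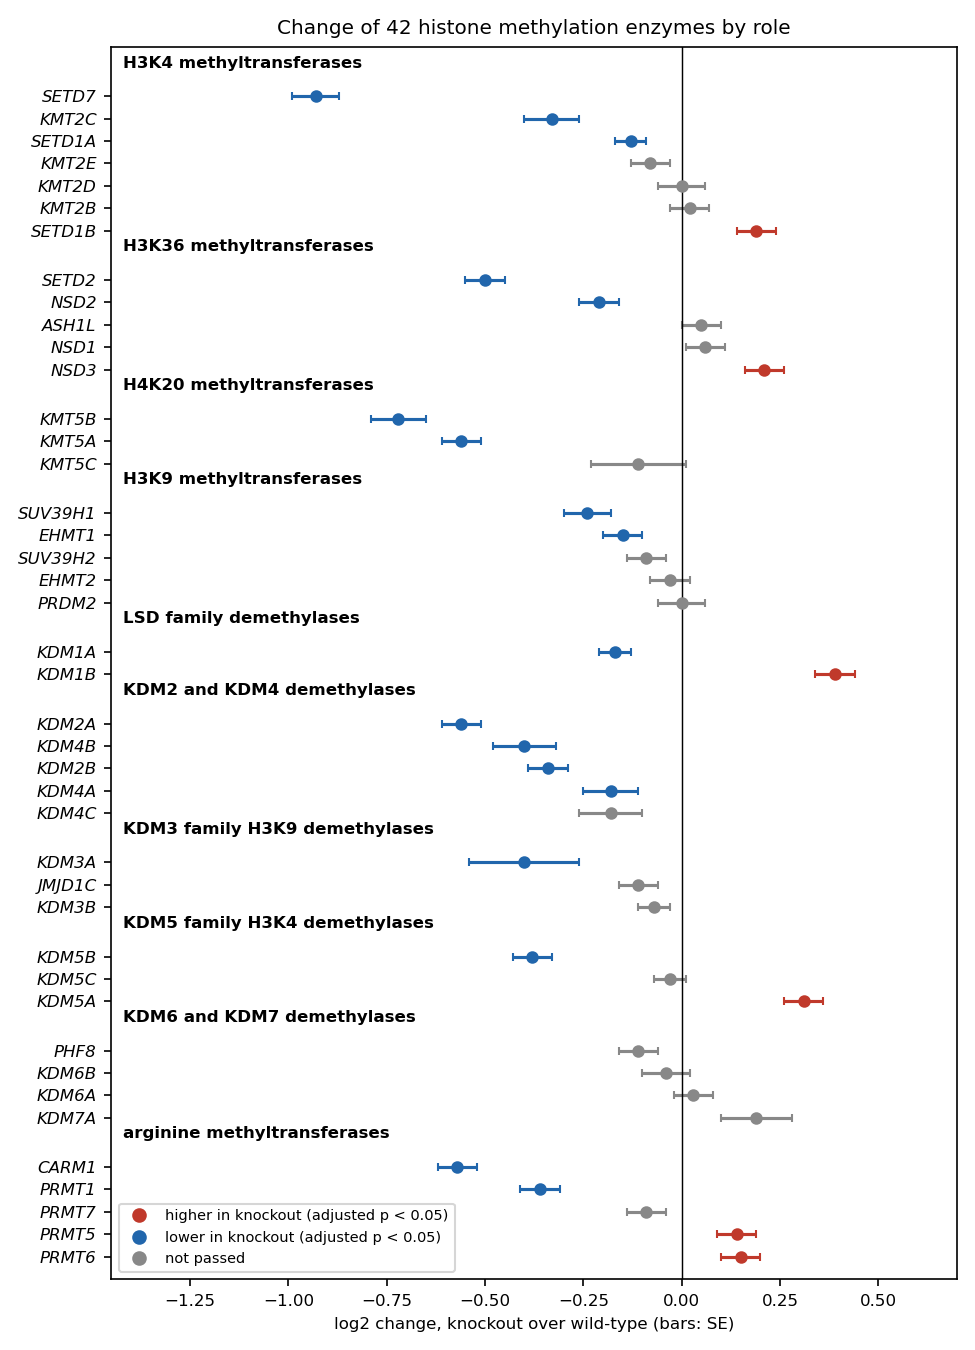
Log2 change between knockout and wild-type for each of the 42 enzymes, grouped by role, with bars for the standard error and colours for the call of edgeR's test. SETD7 lies farthest to the left at -0.93 and KDM1B farthest to the right at 0.39, and the 4 KDM6 and KDM7 enzymes all lie among the members that did not pass.

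Among the enzymes that methylate H3K4, SETD7, KMT2C and SETD1A were lower, SETD1B was higher, and KMT2B, KMT2D and KMT2E did not pass. SETD7 (ENSG00000145391, chromosome 4, 139495941 to 139606699, minus strand, GRCh38) is a monomethyltransferase of H3K4 and of non-histone proteins. SETD7 stood at 169, 166, 185 and 180 CPM in the wild-type samples, given throughout in the order of replicates 1, 2, 3 and 5, and at 80.5, 92.3, 91.6 and 105 CPM in the knockout. The groups lay far apart, with the highest knockout sample well under the lowest wild-type sample, a log2 change of -0.93 (SE 0.06, adjusted p = 1.98e-09). SETD7 was the member with the largest fall, but its chromosomal neighbourhood was lower too, as described with the neighbours of each gene further on.

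KMT2C, a catalytic subunit of the COMPASS-like complexes that monomethylate H3K4 at enhancers, fell from 158 ± 11.5 to 125 ± 11.9 CPM (SD, n = 4 each), with an adjusted p of 0.000401 in edgeR's test. KMT2C shares 5.88% of its 50-base transcript words with other genes, mainly with BAGE2, which went from a mean of 130 to 676 counts, against 6922 and 6093 for KMT2C. KMT2D, its closest relative, stood at 313 ± 21.2 and 313 ± 30.8 CPM. SETD1A and SETD1B, alternative catalytic subunits of the complexes that trimethylate H3K4 at promoters, moved in opposite directions. SETD1A was 85.5, 80.9, 82.9 and 80.0 CPM in wild-type and 75.9, 74.6, 72.7 and 76.8 CPM in knockout samples, a small fall of 0.13 on the log2 scale (adjusted p = 0.0156). SETD1B was 88.8, 81.7, 86.3 and 88.6 CPM in wild-type and 95.8, 92.0, 104 and 102 CPM in knockout samples, a rise of 0.19 (adjusted p = 0.00292). Neither gene's groups overlapped, but SETD1A did not pass with library totals (adjusted p = 0.163), when wild-type replicate 1 was left out (0.0546) or when knockout replicate 3 was (0.0656). KMT2B, the partner of menin-containing complexes, had a log2 change of 0.02 and KMT2E, which is thought to lack catalytic activity, one of -0.08.

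Of the enzymes for H3K36, SETD2 and NSD2 fell, NSD3 rose, and NSD1 and ASH1L did not pass. SETD2 (ENSG00000181555, chromosome 3, 47016429 to 47163967, minus strand), which trimethylates H3K36 during transcription elongation, stood at 171, 163, 176 and 181 CPM in wild-type and at 113, 119, 123 and 132 CPM in knockout samples. The groups did not overlap and the log2 change was -0.50 (SE 0.05, adjusted p = 5.80e-08). NSD2, a dimethyltransferase, was the member with the highest CPM and dropped to 411 ± 14.1 CPM from 477 ± 16.1 CPM, a log2 change of -0.21 with an adjusted p of 0.000709. NSD3 went up to 133 ± 5.67 CPM from 115 ± 4.42 CPM, a log2 change of 0.21 with an adjusted p of 0.000772. NSD1 was 190 ± 8.06 and 199 ± 12.3 CPM and ASH1L 133 ± 5.62 and 138 ± 6.15 CPM. NSD1 and ASH1L passed as higher with library totals, with log2 changes of 0.13 and 0.12 and adjusted p of 0.0457 and 0.0376.

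Of the 3 H4K20 methyltransferases, KMT5A and KMT5B fell and KMT5C did not pass. KMT5A (ENSG00000183955, chromosome 12, 123383773 to 123409358, plus strand), the only known monomethyltransferase of H4K20 and a regulator of the cell cycle, was 77.4, 72.1, 76.6 and 72.1 CPM in wild-type and 47.9, 51.7, 49.4 and 53.4 CPM in knockout samples. Its groups were well separated (log2 change -0.56, SE 0.05, adjusted p = 5.46e-09). KMT5B (ENSG00000110066, chromosome 11, 68154863 to 68213828, minus strand), which adds further methyl groups to H4K20, was 27.5, 29.1, 30.0 and 32 CPM in wild-type and 16.1, 17.6, 17.8 and 20.5 CPM in knockout samples. Its log2 change was -0.72 (SE 0.07, adjusted p = 2.45e-08), again without overlap. KMT5C, which carries out the same step as KMT5B, was low in both groups at 7.24 ± 1.12 and 6.69 ± 1 CPM and did not pass (adjusted p = 0.465). KMT5A shares 14.9% of its 50-base transcript words with other genes, 12.3% with a processed pseudogene copy (KMT5AP1, listed as SETD8P1 in GENCODE 29). That copy had a mean of 494 counts in wild-type and 352 in knockout samples, against 3273 and 2465 for KMT5A, so the split of reads between them is uncertain.

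Of the 5 H3K9 methyltransferases 2 fell, by small amounts, and 3 did not pass, where 23.6% of all tested genes were lower. SUV39H1, which trimethylates H3K9 in constitutive heterochromatin, went down to 33.4 ± 1.07 CPM from 39.4 ± 2.63 CPM, a log2 change of -0.24 with an adjusted p of 0.00119. EHMT1 fell from 71.7 ± 3.75 to 64.5 ± 2.61 CPM (adjusted p = 0.0137), a call lost with library totals (adjusted p = 0.118) and without knockout replicate 2 (adjusted p = 0.0551). Its obligate partner EHMT2 stood at 103 ± 2.90 and 101 ± 4.92 CPM, SUV39H2 at 42.8 ± 2.19 and 40.2 ± 0.693 CPM, and PRDM2 at 42.3 ± 2.09 and 42.3 ± 2.71 CPM. These 3 genes did not pass.

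The LSD demethylases, which remove methyl groups from mono- and dimethylated H3K4, went opposite ways. KDM1A, the subunit of the CoREST corepressor complex, was 138, 132, 141 and 130 CPM in wild-type and 117, 122, 117 and 123 CPM in knockout samples (log2 change -0.17, adjusted p = 0.00309). KDM1B (ENSG00000165097, chromosome 6, 18155329 to 18223853, plus strand), a form that acts in gene bodies, was 40.3, 39.6, 40.5 and 36.6 CPM in wild-type and 49.5, 53.6, 53.9 and 48.0 CPM in knockout samples. Its log2 change of 0.39 (SE 0.05, adjusted p = 4.21e-06) was the largest rise among the members before neighbours were considered, and the groups of both genes stayed apart. Relative to chromosomal neighbours, a scale described further on, KDM1A did not pass (-0.11, adjusted p = 0.0822), and KDM1B (0.19) stood below SETD1B (0.24) and PRMT6 (0.20).

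A similar split was seen among the KDM5 demethylases of di- and trimethylated H3K4. KDM5A (ENSG00000073614, chromosome 12, 280129 to 389454, minus strand) was 79.1, 81.8, 80.5 and 85.3 CPM in wild-type and 95.8, 96.9, 105 and 108 CPM in knockout samples, a log2 change of 0.31 (adjusted p = 1.92e-05). KDM5B (ENSG00000117139, chromosome 1, 202724495 to 202809470, minus strand), which is often abundant in breast cancers, was 48.1, 53.2, 50.2 and 54.7 CPM in wild-type and 36.8, 39.5, 41.0 and 41.5 CPM in knockout samples, a log2 change of -0.38 (adjusted p = 7.01e-06). KDM5A was thus higher and KDM5B lower in every knockout sample than in any wild-type sample. Relative to chromosomal neighbours in the edgeR model, KDM5B stayed lower (-0.41, adjusted p = 1.92e-05). KDM5A did not pass on that scale (0.01, adjusted p = 0.862). The X-linked KDM5C was 109 ± 2.07 and 107 ± 1.86 CPM and did not pass.

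**Figure D2:**
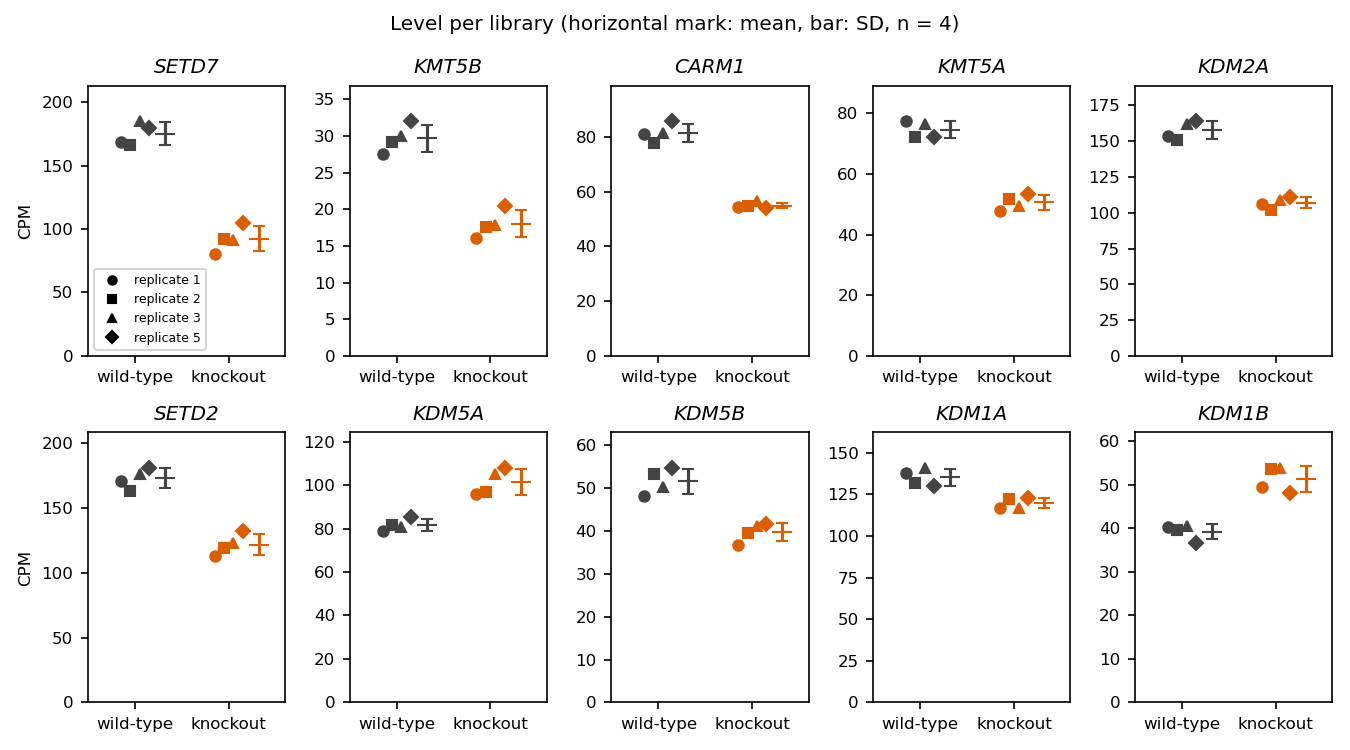
Level in CPM of the 6 members with a log2 change of at least 0.5 and of the KDM5 and LSD pairs in each library, with marker shapes for the replicate number and the mean and SD beside the points (n = 4). All values of the groups are apart in each panel, with KDM5A and KDM1B higher and the other 8 genes lower in the knockout.

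In the KDM2 and KDM4 families, whose substrates are H3K36 and, for KDM4, also H3K9, 4 of 5 members fell and 0 rose. Over all tested genes 23.6% were lower, and 33.7% of those in the members' range of level. Relative to chromosomal neighbours 3 of the 5 passed as lower in the edgeR model, KDM2A not among them (-0.12, adjusted p = 0.0668). KDM2A (ENSG00000173120, chromosome 11, 67119269 to 67258087, plus strand), a CpG island-binding demethylase, was 154, 151, 162 and 164 CPM in wild-type and 106, 102, 109 and 111 CPM in knockout samples (log2 change -0.56, SE 0.05, adjusted p = 1.98e-09). KDM2B, which brings a variant Polycomb complex to CpG islands, went down to 55.7 ± 1.53 CPM from 70.7 ± 3.59 CPM, a log2 change of -0.34 with an adjusted p of 4.99e-06. The groups did not overlap for either gene. KDM4A fell from 23.6 ± 1.97 to 20.8 ± 1 CPM (adjusted p = 0.0248), with overlapping groups. Its call was lost in 5 of 17 alternative analyses, among them when wild-type replicate 3 (adjusted p = 0.103), knockout replicate 2 (0.0569) or knockout replicate 3 (0.0901) was left out. The antisense gene KDM4A-AS1 had a mean of 172 counts in wild-type and 246 in knockout samples, against 1040 and 1013 for KDM4A. KDM4A also shares 38.7% of its 50-base words with AL451062.3, an overlapping gene model with a mean of 0.25 counts in wild-type and 0 in knockout samples. KDM4C stood at 9.70 ± 0.517 and 8.55 ± 0.627 CPM and did not pass (adjusted p = 0.0720). It did in the fit that blocks on replicate number (adjusted p = 0.0423) and without knockout replicate 5 (0.0288).

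The KDM3 genes, whose products demethylate H3K9, changed weakly or unevenly. KDM3B stood at 160 ± 2.80 and 152 ± 4.07 CPM (adjusted p = 0.169) and JMJD1C at 243 ± 7.34 and 225 ± 9.51 CPM (adjusted p = 0.0561, or 0.0239 with the replicate block). The groups of JMJD1C did not overlap, and it passed as lower in 6 of 17 alternatives. KDM3A fell from 52.8 ± 10.6 to 39.9 ± 1.08 CPM with a large spread in wild-type (log2 change -0.40, SE 0.14, adjusted p = 0.0459), and its call was lost in 11 of 17 alternatives. It did not pass when any library other than wild-type replicate 3 was left out, with adjusted p from 0.0509 without wild-type replicate 2 to 0.106 without knockout replicate 5. All 4 members of the KDM6 and KDM7 families, which act on H3K27, H3K9 and H4K20, did not pass, where 47.6% of all tested genes did. KDM6A was 27.5 ± 0.866 and 28.0 ± 1.09 CPM, KDM6B 20.7 ± 0.661 and 20.2 ± 1.31 CPM, and PHF8 53.9 ± 2.24 and 50.0 ± 0.899 CPM. KDM7A, the member with the lowest level per length, was 6.78 ± 0.551 and 7.72 ± 0.485 CPM. PHF8 passed with the replicate block (adjusted p = 0.0338) and without wild-type replicate 2 (0.0427). KDM7A passed with library totals or upper-quartile scaling (adjusted p = 0.0332 and 0.0267). It also did when genes needed a mean log2 CPM of 1 or more (0.0489).

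Of the arginine methyltransferases, CARM1 and PRMT1 fell, PRMT5 and PRMT6 rose, and PRMT7 did not pass. CARM1 (ENSG00000142453, chromosome 19, 10871513 to 10923070, plus strand), a coactivator that asymmetrically methylates H3R17 and H3R26, was 80.9, 77.8, 81.3 and 85.7 CPM in wild-type and 54.2, 54.9, 56.4 and 54.1 CPM in knockout samples. The fall was even across the knockout samples (log2 change -0.57, SE 0.05, adjusted p = 1.44e-09). PRMT1, the main source of asymmetric dimethylarginine, went down to 152 ± 4.09 CPM from 195 ± 14.0 CPM, a log2 change of -0.36 with an adjusted p of 5.07e-06. PRMT5, the main enzyme of symmetric dimethylation, was 297, 290, 316 and 273 CPM in wild-type and 337, 333, 330 and 295 CPM in knockout samples (log2 change 0.14, adjusted p = 0.0364). PRMT6 rose from 43.8 ± 3.11 to 48.6 ± 1.2 CPM (adjusted p = 0.0254). The PRMT5 and PRMT6 groups overlapped, and their calls were lost in 8 and 6 of 17 alternatives. PRMT5 did not pass when any library but wild-type replicate 3 and knockout replicate 5 was left out, with adjusted p from 0.0710 to 0.142. PRMT6 did not pass when any library but wild-type replicate 3, knockout replicate 1 and knockout replicate 2 was, with adjusted p from 0.0523 to 0.0926. CARM1 shares 19.9% of its exon bases with YIPF2 on the opposite strand, and whether reads were counted by strand is not given in the sources used here. YIPF2 itself had a mean of 1207 counts in wild-type and 1211 in knockout samples, against 3578 and 2672 for CARM1.

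Levels can be compared between genes per kilobase of exon. On that scale (RPKM, the CPM divided by the length of all annotated exons) PRMT5 stood highest at 84.7 ± 5.13 in wild-type, followed by PRMT1 at 40.7 ± 2.91, KDM1A at 24.8 ± 0.957 and NSD2 at 24.1 ± 0.816. KDM1A and NSD2 did not differ beyond their spread. KDM7A (0.719 ± 0.0584), KDM4C (0.940 ± 0.0501) and KMT5C (1.52 ± 0.236) stood lowest. Exon lengths that include rarely used exons lower these values, so they serve for a rough order.

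Several of the larger changes lay in stretches of chromosome where the neighbouring genes changed likewise. For each gene the median deviation of up to 20 tested genes on either side was taken in each sample. This median was used as an offset in the same edgeR model, which gave a change relative to neighbours. The offset was treated as known, so p-values on this scale do not include the spread of changes among the neighbours. Around SETD7 the neighbours' median deviation differed by -0.77 between the groups, and relative to them SETD7 changed by -0.16 (adjusted p = 0.0129). Of its 40 neighbours 27 fell and 3 rose. For SETD2 the neighbours stood at -0.60, and relative to it SETD2 changed by 0.10 (adjusted p = 0.144), with 31 of 40 neighbours lower and 1 higher. These genes thus fell little or not at all beyond the genes around them.

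KDM2A and KMT5B lie near each other on chromosome 11 and share 11 of their 40 neighbours, so they are not independent cases. Their neighbour medians were -0.44 and -0.45, and relative to neighbours KDM2A changed by -0.12 (adjusted p = 0.0668) and KMT5B by -0.27 (adjusted p = 0.00508). KMT2C (-0.33) had neighbours at -0.26 and changed by -0.07 relative to them (adjusted p = 0.499). On the other side, KDM5A lay among neighbours that were higher by 0.30 and changed by 0.01 relative to them (adjusted p = 0.862), and PRMT5 likewise changed by 0.01 (adjusted p = 0.864). DNA copy number was not analysed here, and its part in these values was not tested.

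By contrast, KMT5A and CARM1 had neighbours at -0.09 each and changed by -0.47 and -0.48 relative to them (adjusted p = 2.32e-07 and 1.37e-07). KDM5B (-0.41), SUV39H1 (-0.33), KDM2B (-0.32), NSD2 (-0.21), PRMT1 (-0.21) and SETD1A (-0.20) also passed as lower relative to neighbours, and SETD1B (0.24), KDM1B (0.19), PRMT6 (0.20) and NSD3 (0.15) as higher. SETD1B and KDM2B, which moved in opposite directions, share 32 of 40 neighbours. NSD1 and PRMT7, which had not passed before, did so on this scale, as lower and higher, and EHMT2 (-0.13, adjusted p = 0.0366) and JMJD1C (-0.18, adjusted p = 0.00510) newly passed as lower. NSD1 lay among neighbours that were higher by 0.32 and changed by -0.26 relative to them (adjusted p = 0.000747), and PRMT7 among neighbours at -0.33 and changed by 0.24 (adjusted p = 0.000641). In all, 16 members were lower and 5 higher relative to neighbours. Of all genes with such a value 44.1% passed, 22.2% as lower and 21.9% as higher. Of the 18 lower calls 13 were also made on this scale, and of the 6 higher calls 4.

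**Figure D3:**
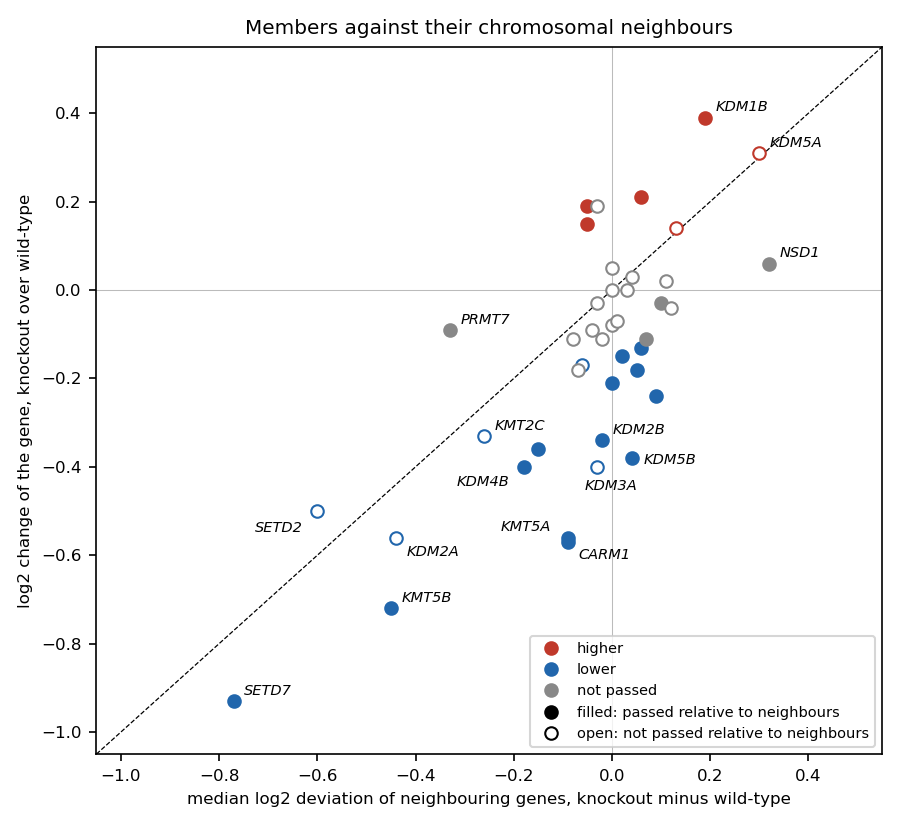
Log2 change of each member against the median log2 deviation of its chromosomal neighbours, with a dashed line where both are equal and filled symbols for members that passed relative to neighbours. SETD7, SETD2, KDM2A and KMT2C lie close to the line, whereas KMT5A and CARM1 lie far below it with neighbours at -0.09.

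Related enzymes were also compared directly, as the log2 ratio of their CPM in each sample, in 20 pairs drawn from the same family. With 4 samples against 4 the 2-sided exact permutation test cannot go below p = 0.0286, and 13 of the 20 pairs (65%) reached it, which means that their groups did not overlap (p adjusted over the 20 pairs = 0.0440 by the Benjamini-Hochberg method). Single genes already kept the groups apart in 43.4% of all tested genes, and the share for pairs of genes in general was not computed, so the count says nothing particular about related enzymes. Without removing the neighbours' deviation, the KDM5A to KDM5B ratio changed most. It was 0.72, 0.62, 0.68 and 0.64 in wild-type and 1.38, 1.29, 1.35 and 1.38 in knockout samples, a shift of 0.69 ± 0.03 (SE) on the log2 scale, so that KDM5A gained on KDM5B in every sample (exact permutation test, p = 0.0286).

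The balance of KDM1A to KDM1B moved the other way, by -0.56 ± 0.05 (SE), with ratios of 1.78, 1.73, 1.80 and 1.83 in wild-type and 1.24, 1.19, 1.12 and 1.36 in knockout samples. KMT5B to KMT5C shifted by -0.61 ± 0.18, PRMT1 to PRMT6 by -0.51 ± 0.04, NSD2 to NSD3 by -0.42 ± 0.05, KMT2C to KMT2D by -0.33 ± 0.03 and SETD1A to SETD1B by -0.32 ± 0.06. Each of these shifts reached the smallest p of the exact permutation test (0.0286). In these pairs 1 enzyme lost ground to its relative in all 4 knockout samples. For KDM5A to KDM5B, KDM1A to KDM1B, NSD2 to NSD3 and SETD1A to SETD1B, both genes already kept the groups apart, in opposite directions. Their ratios therefore had to reach the smallest p of this test. The pairs KDM4A to KDM4C (0.00 ± 0.08), KDM6A to KDM6B (0.07 ± 0.06) and EHMT1 to EHMT2 (-0.12 ± 0.04) did not reach it, with exact p of 1, 0.371 and 0.0571. This test does not use the pairing of replicate numbers. Within same-numbered samples 14 of the 20 ratios moved in 1 direction in all 4 numbers, EHMT1 to EHMT2 among them (-0.17, -0.06, -0.14 and -0.10), but an exact test over 4 such pairs cannot go below p = 0.125. On the deposited variance-stabilized values 12 of 20 pairs (60%) passed. With the neighbours' deviation removed, 9 of 20 pairs (45%) reached 0.0286 in the exact permutation test. After adjustment over the pairs 0 passed this test (adjusted p = 0.0635). Pairs at 0.0286 all get the same adjusted p, which depends on how many reach it, so they pass or fail together. The 9 pairs still kept their groups apart, and the fall to 0 is no measure of how much their shifts shrank. Of the 9, PRMT1 to CARM1 (0.28 ± 0.07) had not reached 0.0286 before, and PRMT5 to PRMT7 had turned, from 0.23 to -0.22 ± 0.07. Among these 9 were also SETD1A to SETD1B (-0.43 ± 0.05), KDM5A to KDM5B (0.42 ± 0.06) and KDM1A to KDM1B (-0.30 ± 0.07). By contrast, KMT2C to KMT2D shrank to -0.04 ± 0.04 (exact p = 0.486) and KMT5B to KMT5C to -0.18 ± 0.19 (exact p = 0.429). NSD1 to NSD2 went from 0.28 to -0.05, KDM5A to KDM5C from 0.34 to 0.01 and KDM2A to KDM2B from -0.22 to 0.20, also without reaching 0.0286.

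**Figure D4:**
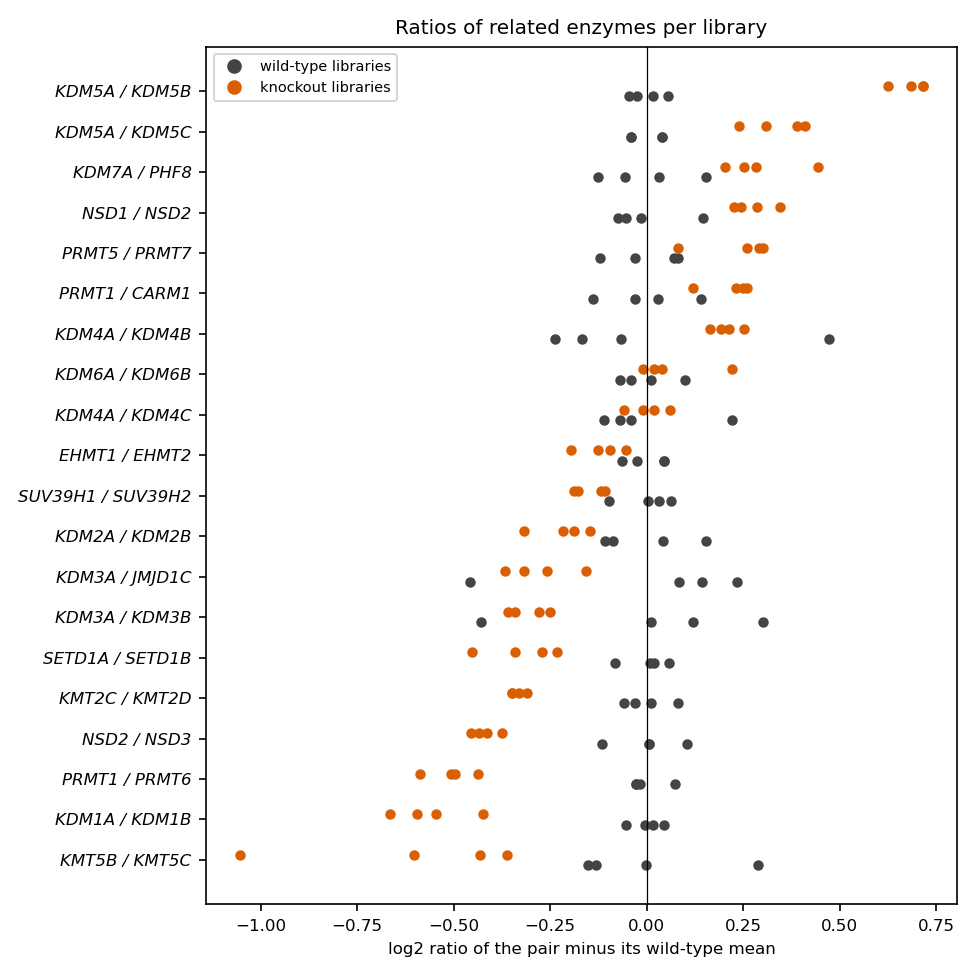
Log2 ratio of CPM for 20 pairs of related enzymes in each library, drawn relative to the wild-type mean of the pair. The KDM5A to KDM5B ratio shifts by 0.69 and the KDM1A to KDM1B ratio by -0.56, with no overlap between the libraries of the groups.

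KDM3A and KDM4B, both known as genes that hypoxia induces through HIF1, differed among the wild-type samples. KDM3A was 55.9, 63.5, 38.3 and 53.7 CPM in wild-type and 40.8, 40.3, 38.3 and 40.1 CPM in knockout samples. KDM4B was 39.9, 40.3, 29.7 and 38.4 CPM in wild-type and 28.5, 27.8, 27.4 and 28.9 CPM in knockout samples (log2 change -0.40, adjusted p = 0.000473). Wild-type replicate 3 lay at or close to the knockout level for both genes. Without it the log2 changes were -0.53 for KDM3A (adjusted p = 1.01e-07) and -0.49 for KDM4B (adjusted p = 8.35e-08). Leaving out the wild-type sample nearest the knockout level was bound to widen these changes, so they are no support for the fall. Dixon's criterion flagged that sample for neither gene. KDM4B lay among neighbours at -0.18 and changed by -0.22 relative to them (adjusted p = 0.0380), whereas KDM3A changed by -0.38 (adjusted p = 0.0557).

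Other hypoxia-inducible genes followed this in part. In a list of 12 such genes, chosen after the KDM3A values were seen, wild-type replicate 3 was the lowest wild-type sample for 11, ADM being the exception, and it was the lowest for 30.1% of all tested genes. It lay within the range of the knockout samples for 4 of the 12, above it for 6 and below it for 2. PDK1 and PFKFB4 were 2 of the 4 within the range. PDK1, a kinase that restrains pyruvate oxidation, was 35.7, 45.5, 24.9 and 41.0 CPM in wild-type and 23.9, 25.2, 25.9 and 25.1 CPM in knockout samples. PFKFB4, a regulator of glycolysis, was 24.1, 27.0, 15.1 and 23.6 CPM in wild-type and 15.4, 15.4, 14.6 and 15.7 CPM in knockout samples. For ANKRD37, wild-type replicate 3 at 2.71 CPM stayed above the knockout samples (0.899 to 1.92 CPM). For NDRG1, at 51 CPM, it lay below them (75.9 to 83.5 CPM). Of the 12 genes 9 were lower and 1, EGLN3, was higher in the knockout, where 23.6% of all tested genes were lower. The part of oxygen supply or culture density in the KDM3A and KDM4B changes was not tested.

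**Figure D5:**
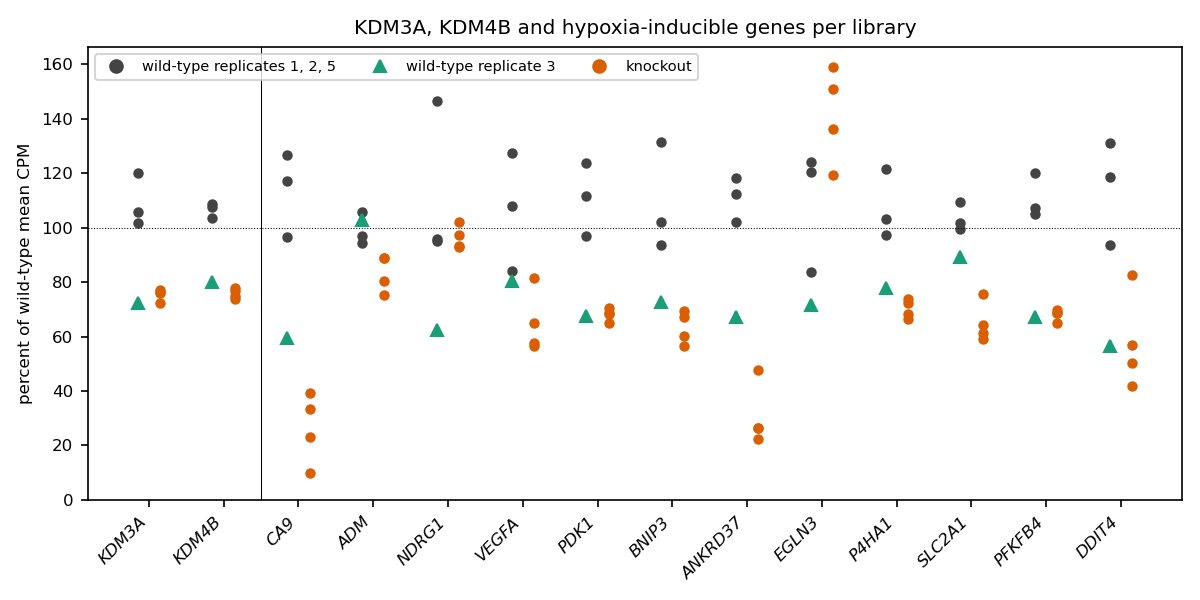
Level of KDM3A, KDM4B and 12 hypoxia-inducible genes in each library as a percentage of the gene's wild-type mean CPM. Wild-type replicate 3 (triangles) is the lowest wild-type library for both demethylases and for 11 of the 12 other genes.

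The series title names MYC and Mondo, which bind the E-box CACGTG, so the members' promoters were searched for these letters on both strands, which the palindrome makes the same search. RefSeq promoters (GRCh38.p14, windows of 300 bases that reach past a listed start) were found for 40 of the 42 members, and 7 of these (17.5%) held CACGTG, against 11.9% of 12008 tested genes and 8.77% of all 27305 genes with a promoter. The 7 were NSD1, EHMT2, KDM4C, JMJD1C, KMT2D, KDM4B and KDM6A. Of these only KDM4B was among the called members, so 1 of 18 lower members, 0 of the 4 higher members with a promoter and 6 of 18 that did not pass held it. The promoters of the KDM4 relatives and of KMT2D are printed to show where it lies, with CACGTG in capitals and the rest in lower case.
KDM4B (chr19:4968863-4969162, plus strand): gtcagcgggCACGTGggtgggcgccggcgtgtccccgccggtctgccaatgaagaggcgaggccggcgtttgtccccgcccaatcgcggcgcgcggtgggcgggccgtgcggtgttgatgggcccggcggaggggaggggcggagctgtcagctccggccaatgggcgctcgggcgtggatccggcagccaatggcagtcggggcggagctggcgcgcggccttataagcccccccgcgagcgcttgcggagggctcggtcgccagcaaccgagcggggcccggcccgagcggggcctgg
KDM4C (chr9:6757723-6758022, plus strand): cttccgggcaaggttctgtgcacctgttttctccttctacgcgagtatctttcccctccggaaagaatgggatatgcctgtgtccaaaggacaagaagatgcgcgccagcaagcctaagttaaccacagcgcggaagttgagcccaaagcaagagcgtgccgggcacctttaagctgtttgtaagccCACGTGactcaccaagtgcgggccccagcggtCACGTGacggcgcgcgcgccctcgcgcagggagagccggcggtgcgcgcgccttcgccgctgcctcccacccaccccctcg
KMT2D (chr12:49060745-49061044, minus strand): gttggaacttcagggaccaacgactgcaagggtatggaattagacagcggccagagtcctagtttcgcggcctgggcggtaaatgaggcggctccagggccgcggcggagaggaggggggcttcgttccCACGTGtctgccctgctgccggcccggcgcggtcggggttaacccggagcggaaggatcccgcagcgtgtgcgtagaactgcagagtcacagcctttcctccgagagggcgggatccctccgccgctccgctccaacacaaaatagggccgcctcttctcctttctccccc
Counted from the listed start, the motif begins at -241 in KDM4B, at -63 and -31 in KDM4C and at -121 in KMT2D. KDM4B fell, while KDM4C and KMT2D, which also hold it, did not pass. A match of letters is a description and was not tested as a binding site.

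Lists of partner subunits and related enzymes were mixed, and their counts stand against 47.6% of all tested genes called, 23.9% as higher and 23.6% as lower. Of 14 subunits of the COMPASS and MLL complexes, 2 rose, 5 fell and 7 did not pass, with a median log2 change of -0.08 against 0.00 over all tested genes. The core subunits WDR5 (-0.08), RBBP5 (0.03), ASH2L (-0.04) and DPY30 (-0.03), which every complex of the family shares, did not pass. WDR82, which ties SETD1A and SETD1B to RNA polymerase II, fell from 215 ± 6.67 to 138 ± 2.05 CPM (log2 change -0.64, -0.23 relative to neighbours). PAXIP1, specific to the KMT2C and KMT2D complexes, fell from 81.1 ± 2.11 to 52.3 ± 2.88 CPM (-0.63). CXXC1, which binds unmethylated CpG sites for the SETD1 complexes, rose from 25.3 ± 0.911 to 29.8 ± 0.702 CPM (0.23), and PAGR1 rose by 0.21.

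Of 14 LSD1 and CoREST partners, 3 rose, 6 fell and 5 did not pass (median -0.03). HDAC1, a deacetylase of the complex, went up to 156 ± 4.41 CPM from 131 ± 2.64 CPM, a log2 change of 0.25 with an adjusted p of 6.87e-05. The deacetylase HDAC2, in the same list, fell from 187 ± 6.29 to 170 ± 3.84 CPM (-0.13, adjusted p = 0.0158). The scaffold RCOR1 rose by 0.19. ZNF217 (-0.43) and GSE1 (-0.62) were the lower members with the smallest adjusted p. Of 14 partners and readers of H3K9 methylation, 1 rose, 2 fell and 11 did not pass (median -0.07). All 3 HP1 genes, CBX1 (-0.04), CBX3 (-0.08) and CBX5 (-0.11), which bind methylated H3K9, were among those that did not pass. UHRF1, a reader that also guides DNA methylation, fell from 160 ± 6.65 to 118 ± 1.95 CPM and TASOR, of the HUSH silencing complex, from 105 ± 5.88 to 78.8 ± 5.41 CPM. ATF7IP rose by 0.20. Relative to neighbours both TASOR and ATF7IP turned, to 0.09 and -0.11.

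Of 13 H3K36 partners and readers, 2 rose, 7 fell and 4 did not pass (median -0.17). ZMYND11, a reader of trimethylated H3K36 on the histone variant H3.3, fell from 97.1 ± 4.82 to 74.3 ± 2.93 CPM and GLYR1 from 94.0 ± 3.21 to 75.5 ± 1.55 CPM. MTF2 rose by 0.16 and SUPT6H, an elongation factor, by 0.11. Among 26 tested genes of other lysine methyltransferases, demethylases and related Jumonji proteins, 4 rose, 7 fell and 15 did not pass (median -0.07). KMT2A, a relative of KMT2B, went up to 398 ± 32.9 CPM from 283 ± 21.3 CPM, a log2 change of 0.49 with an adjusted p of 1.53e-06. Of the 4 KMT2 members 0 rose, where 23.9% of all tested genes were higher. HIF1AN rose by 0.16, whereas EZH2, the H3K27 methyltransferase, fell from 119 ± 4.50 to 85.3 ± 3.44 CPM and PHF2, a KDM7 relative, from 52.2 ± 0.519 to 41.9 ± 1.68 CPM.

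Of 9 tested arginine methyltransferase relatives and partners, 1 rose, 3 fell and 5 did not pass (median -0.02). PRMT3, which methylates a ribosomal protein, had the largest fall of them (-0.78, or -0.52 relative to neighbours). The PRMT5 partner WDR77 stood at 96.2 ± 7.70 and 92.9 ± 2.71 CPM, while the partner CLNS1A fell from 72.1 ± 5.12 to 47.4 ± 1.66 CPM and RIOK1 rose by 0.15.

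The enzymes that make the methyl donor and the demethylase cofactor also changed in part. Of 14 tested genes of the S-adenosylmethionine cycle, 2 rose, 6 fell and 6 did not pass (median -0.08). MAT2A, which makes S-adenosylmethionine, stood at 501 ± 15 and 500 ± 25.1 CPM, and AHCY, which clears the product of methylation, at 296 ± 14.2 and 280 ± 5.26 CPM. ENOPH1, an enzyme of methionine salvage, fell from 84.7 ± 6.20 to 43.0 ± 2.11 CPM (log2 change -0.98, or -0.23 relative to neighbours) and MTRR, which reactivates methionine synthase, from 87.4 ± 6.81 to 56.0 ± 1.46 CPM (-0.64, or -0.17). NNMT, which spends the methyl donor on nicotinamide, rose from 1.31 ± 0.252 to 2.47 ± 0.186 CPM, and AHCYL2 rose by 0.36. MTAP, whose loss is known to let an inhibitor of PRMT5 build up, had 0 counts in all 8 libraries. With 3 counts taken as a rough upper bound for a count of 0, not a hard limit, that is below about 0.0600 to 0.0748 CPM (counting error only). Of 18 enzymes around 2-oxoglutarate, 3 rose, 7 fell and 8 did not pass (median -0.02). IDH1 (-0.08) and IDH2 (0.32, adjusted p = 0.0854) did not pass, GLUD1 and SDHA fell by 0.26 and 0.32, and GOT1 and IDH3G rose by 0.15 each. Relative to neighbours SDHA turned to 0.18.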

How the data were processed

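Gene counts for the 8 RNA-seq libraries and a table of log2-scale variance-stabilized values were deposited by the authors. Per the submitters' processing notes, the tools were STAR 2.6.0c, featureCounts from Subread 1.6.2, FastQC 0.11.7 and DESeq2 1.23.10 with hg38; the annotation release and strand setting are not given in the sources used here. Gene positions came from GENCODE 29.

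The counts were fitted in edgeR 4.0.16 (R 4.3.3) with its low-count filter, TMM scaling and the robust quasi-likelihood test, wild-type against knockout, over 19877 genes, with Benjamini-Hochberg adjustment over all of them and a threshold of 0.05. Every adjusted p in the text comes from that model unless another fit, a left-out library or a pair ratio is named with it. For pair ratios a 2-sided exact permutation test was used. On simulated data with 200 of 19877 genes changed, the edgeR model recovered 85.7% of genes changed 1.5-fold and 98.2% of those changed 2-fold. There 7.25% of calls were false. In the deposited data 47.6% of tested genes were called, and 18 of the 24 called members stayed under 0.5 on the log2 scale. The simulated rates therefore need not hold for the calls given here. At these depths 1 count is worth 0.0198 to 0.0250 CPM.

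Alternatives were library totals, upper-quartile and DESeq2 size factors, DESeq2 1.42.0, limma 3.58.1 on the deposited log2 values, 2 other filters, a replicate block, the neighbour offset of 20 genes on either side and leaving out each library. Same-numbered libraries deviated together (r = 0.369, 0.148, 0.146 and 0.373 over 13344 genes), which is where the pairing comes from. Members and gene lists were chosen with earlier results of these data known. Named genes were all members, and in each related list the 2 called genes with the smallest adjusted p in each direction, plus core subunits and enzymes named for their role after their values were seen.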

Additional observations from a re-analysis of the deposited data

Results flagged for a closer look

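For 6 of the 86 gene and group combinations checked (4.3 are flagged by chance), 1 library lay far from the other 3 of its group by Dixon's criterion. SUV39H2 was 46 CPM in wild-type replicate 3, above 41.2 to 42 CPM. KDM3B was highest in replicate 5 of both groups, at 164 CPM in wild-type and 158 CPM in knockout. PRMT1 was 146 CPM in knockout replicate 3, below 154 to 155 CPM, and PRMT5 was 295 CPM in knockout replicate 5, below 330 to 337 CPM. PRMT6 was 48.4 CPM in wild-type replicate 3, above 41.9 to 42.5 CPM.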

How the results depend on the processing

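With library totals and upper-quartile scaling, 61.2% and 61.9% of all called genes were higher. The number of genes in the related lists that were higher, 18, became 32 with library totals, 32 with upper-quartile scaling, 28 when genes needed a mean log2 CPM of 1 or more, and 11 relative to neighbours, and 12 to 21 when 1 library was left out. Relative to neighbours the log2 change turned to 0.10 for SETD2, -0.26 for NSD1 and 0.24 for PRMT7. On that scale 0 pair ratios passed after adjustment, with 9 at an unadjusted exact p below 0.05. Those 9 share the smallest p of the test and so pass or fail together. Leaving out 1 library gave 19 to 24 members called, 4 to 6 of them higher and 15 to 19 lower, and 8463 to 9606 genes in all. With the replicate block 27 members were called, 6 higher and 21 lower, and 10472 genes in all. The block added KDM4C, JMJD1C and PHF8 and ended 0 calls of members. For the pair ratios, a block on 4 numbers cannot go below an exact p of 0.125, and 4 samples against 3 cannot go below an exact p of 0.0571. Of the 24 called members 13 kept their call in all 17 alternatives.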
